A study of Homo sapiens with 8 samples.

Results

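The cadherins and non-clustered protocadherins are 35 of the 60659 genes in the count table: 23 cadherins and 12 protocadherins. They are the protein-coding genes whose GENCODE symbol is CDH or PCDH followed by a number, with or without an X. By structural subfamily, 5 were type I cadherins (CDH1, CDH2, CDH3, CDH4 and CDH15), 13 were type II cadherins (CDH5 to CDH12, CDH18, CDH19, CDH20, CDH22 and CDH24) and 5 were other cadherins (CDH13, CDH16, CDH17, CDH23 and CDH26). Of the protocadherins, 9 belonged to the delta group (PCDH1, PCDH7 to PCDH10, PCDH11X, PCDH17, PCDH18 and PCDH19) and 3 were others (PCDH12, PCDH15 and PCDH20). The protocadherins of the alpha, beta and gamma clusters were not among them.

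Classical cadherins are calcium-dependent adhesion receptors that bind the same or a related cadherin on a neighbouring cell through their outermost repeat, and reach the actin skeleton through beta-catenin, p120 catenin and alpha-catenin. Neural crest cells and neurons carry N-cadherin (CDH2) where epithelia carry E-cadherin (CDH1), and an exchange of one for the other is called cadherin switching. Delta protocadherins adhere more weakly, do not bind catenins in the classical way, and are known for sorting neurons and axons in the developing brain.

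The RNA came from SK-N-SH, a line grown from a human neuroblastoma, and was sequenced as total RNA without ribosomal RNA in 4 groups with 2 biological replicates each. All groups were kept in all-trans retinoic acid (ATRA, 10 μM, 24 h in the labels), which drives neuronal differentiation of this line. For overexpression, cells carrying FLAG-tagged ZMYND8 in the inducible lentiviral vector pInducer20, selected with G418, were set against parental cells, with doxycycline (Dox) given to both groups. For knockdown, ZMYND8 KD cells were set against KD control cells, and the labels of these groups name no Dox. Since parental cells are not labelled as carrying a vector, the vector and its selection cannot be told apart from the added ZMYND8. The study's methods describe knockdown by pLKO.1 shRNA lentivirus, without naming the hairpin or the control of these libraries. The comparisons address how the level of ZMYND8, a reader of acetylated and methylated histones, moves with these adhesion genes during ATRA treatment, including whether CDH1 and CDH2 exchange places.

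The libraries held 38316523 to 56256979 counts on genes. ZMYND8 had 3089 and 3612 counts in parental cells, 220691 and 182849 with overexpression, 3128 and 3374 in KD control and 1641 and 1640 in knockdown, in the direction of each label. The knockdown was partial, at a log2 fold change of -0.94. The overexpression libraries held a count on more of the table than the rest: 83.9% and 84.5% of 19937 protein-coding genes had at least 1 count there, against 77.8% to 79.5% in the other 6 libraries. Of 400 olfactory receptor genes, whose products serve the sense of smell, 46 had a count in each overexpression library and 18 to 29 in the others. Their summed level was 5.30 and 5.50 CPM (counts per 1000000 library counts) with overexpression and 22.2 and 25.2 in parental cells. It was 5.9 and 5.5 CPM in KD control and 3.2 and 3.7 in knockdown. The summed level of 13 adrenergic neuroblastoma markers was 363 to 365 CPM in parental cells and 1507 to 1598 with overexpression. The summed level of 13 mesenchymal markers was 11140 to 11650 and 3791 to 4041. In KD control the same sums were 1421 to 1523 and 5251 to 5424, and in knockdown 1144 to 1332 and 6583 to 6963. Of the adrenergic markers, TH alone was at 0 in both libraries of a group, in KD control and in knockdown. It had 0 and 1 counts in parental cells and 5 and 1 with overexpression. No mesenchymal marker was at 0 in any group. The part of these cell state markers in the results below was not tested, and in bulk RNA a change in the share of cells cannot be told apart from a change in RNA per cell. The labels call the cells epithelial. Of 10 epithelial markers, ESRP1 and OVOL1 were at 0 in parental cells and the other 8 had counts there. KRT18 had 16529 and 19833 counts, KRT8 3151 and 3954, CLDN4 221 and 274, CLDN7 98 and 100, and KRT19 68 and 62. EPCAM had 22 and 44 counts, ESRP2 7 and 6, and GRHL2 2 and 2, so the summed level rests mainly on KRT18 and KRT8. The 10 summed to 470 to 473 CPM in parental cells, 176 to 230 with overexpression, 370 to 437 in KD control and 406 to 455 in knockdown.

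The promoters of 4 members show the starts of the gene that fell (CDH2), of 2 delta protocadherins with large increases (PCDH8 and PCDH17) and of a gene seen in the overexpression libraries alone (CDH12). Each is the 250 bases before the RefSeq start, 5′ to 3′ on the gene's strand in GRCh38.p14: chr18:28177131-28177380, minus strand, for CDH2, chr13:52848641-52848890, minus strand, for PCDH8, chr13:57631494-57631743, plus strand, for PCDH17, and chr5:22853345-22853594, minus strand, for CDH12. Capitals mark 5 short motifs on either strand, with no overlap between different motifs: CCAAT, bound by NF-Y, then GGGCGG, the core of an Sp1 site, then TATAAA, the usual TATA box, then CAGGTG, an E-box form, and last AGGTCA, a half-site of nuclear receptors.
CDH2: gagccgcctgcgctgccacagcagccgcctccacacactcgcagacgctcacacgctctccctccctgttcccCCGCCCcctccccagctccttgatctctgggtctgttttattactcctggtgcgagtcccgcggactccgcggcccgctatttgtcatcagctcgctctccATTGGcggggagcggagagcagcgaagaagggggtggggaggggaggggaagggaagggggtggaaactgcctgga
PCDH8: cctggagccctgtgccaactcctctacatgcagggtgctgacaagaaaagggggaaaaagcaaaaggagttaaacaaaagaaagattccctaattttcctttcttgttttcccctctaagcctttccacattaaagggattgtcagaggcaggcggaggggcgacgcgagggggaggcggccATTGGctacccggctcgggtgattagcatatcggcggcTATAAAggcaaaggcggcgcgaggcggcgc
PCDH17: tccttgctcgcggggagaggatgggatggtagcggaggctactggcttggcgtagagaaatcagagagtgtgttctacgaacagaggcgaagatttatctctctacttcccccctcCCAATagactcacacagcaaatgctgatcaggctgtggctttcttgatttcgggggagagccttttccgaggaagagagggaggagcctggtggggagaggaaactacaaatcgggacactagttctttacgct
CDH12: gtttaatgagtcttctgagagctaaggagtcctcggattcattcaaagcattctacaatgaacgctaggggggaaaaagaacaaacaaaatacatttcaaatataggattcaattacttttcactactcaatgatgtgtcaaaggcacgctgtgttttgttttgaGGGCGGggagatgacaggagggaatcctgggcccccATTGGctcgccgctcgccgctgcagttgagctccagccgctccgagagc
RefSeq promoters were matched for 22 of the 35 members, with the start nearest to the gene start of the count table taken for each. That start lay 247160 bases away for CDH4, 82564 for CDH9, 11539 for PCDH12 and 9619 for PCDH1. Each member gave 1 promoter, while a gene of the comparison set could give more than 1. CCAAT stood in 16 of the 22 (72.7%), against 32.9% of 21396 promoters of protein-coding genes. GGGCGG stood in 8 (36.4%, against 54.3%) and CAGGTG in 2 (9.09%, against 17.0%). TATAAA stood in 1 (4.55%, against 9.03%) and AGGTCA in 1 (4.55%, against 10.2%). Among the 12 matched members that were called higher with overexpression, 8 held CCAAT, as did 8 of the other 10. GGGCGG stood in 7 of those 12 (58.3%, beside 54.3% of all promoters) and in 1 of the other 10. The other 10 include CDH4 and CDH9, which gained counts from 0 with overexpression, and CDH19 and PCDH12, which were not tested there. The median GC content was 55.6% in member promoters and 62.0% in all. A match of letters is a description only.

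**Figure D1:**
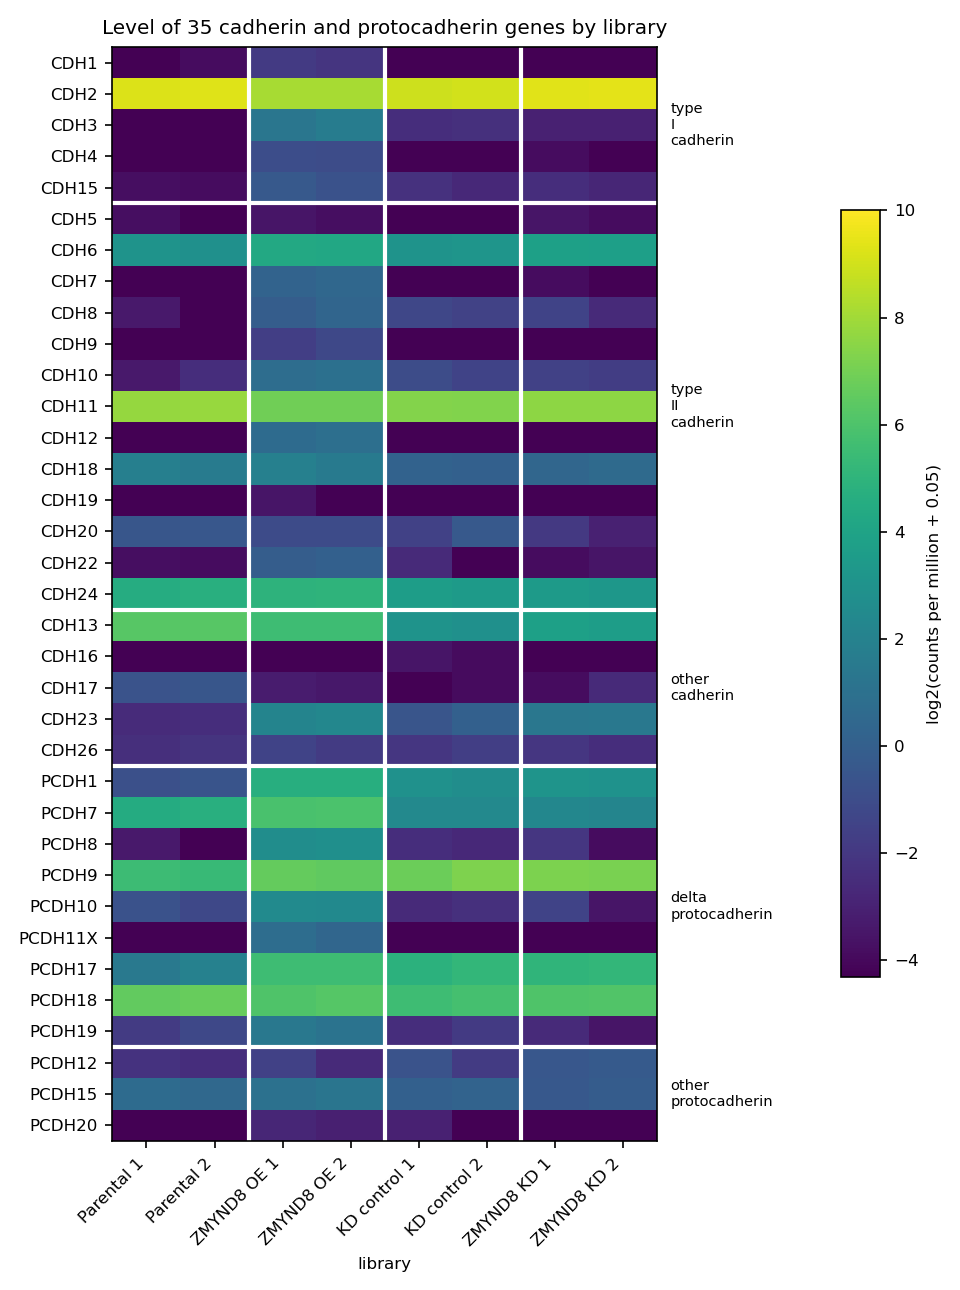
Level of each of the 35 genes (rows, by subfamily) in each of the 8 libraries (columns), as log2 of CPM plus 0.05, with darker cells for lower levels. CDH2 and CDH11 are bright in every library. CDH1, CDH4, CDH7, CDH9, CDH12 and PCDH11X are above 1 count in both overexpression libraries and in no other library.

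N-cadherin dominated the repertoire in every group. Per kilobase of gene length, its level in parental cells was 71.8 ± 0.443 CPM per kilobase (SD, n = 2), followed by CDH11 at 16.2 ± 0.177, PCDH18 at 14.7 ± 0.760, CDH13 at 7.06 ± 0.0491 and CDH24 at 6.58 ± 0.486. CDH13 and CDH24 differed by less than the spread between the libraries for CDH24. With overexpression, the order was CDH2 at 32.3 ± 0.547, PCDH18 at 10.4 ± 0.897, CDH11 at 8.92 ± 0.137, CDH24 at 8.29 ± 0.0470, PCDH17 at 5.49 ± 0.0119 and PCDH7 at 4.99 ± 0.184. CDH2 made up 59.3% and 58.4% of the summed per-kilobase level of the 35 genes in parental cells, 37.0% and 35.9% with overexpression, 62.8% and 62.5% in KD control and 65.3% and 66.0% with knockdown. The share of the delta protocadherins was 14.9% and 15.7% in parental cells, 33.6% and 34.9% with overexpression, 17.6% and 19.9% in KD control and 17.4% and 17.6% with knockdown. Both shares in the overexpression libraries lay outside those of the other 6. The summed level was 120.5 and 123.4 in parental cells, 88.5 and 89.1 with overexpression, 90.6 and 95.6 in KD control and 117.1 and 118.9 with knockdown. Members at 1 CPM or more numbered 11 in each parental library, 21 and 22 with overexpression, and 11 or 12 in each library of the knockdown experiment.

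**Figure D2:**
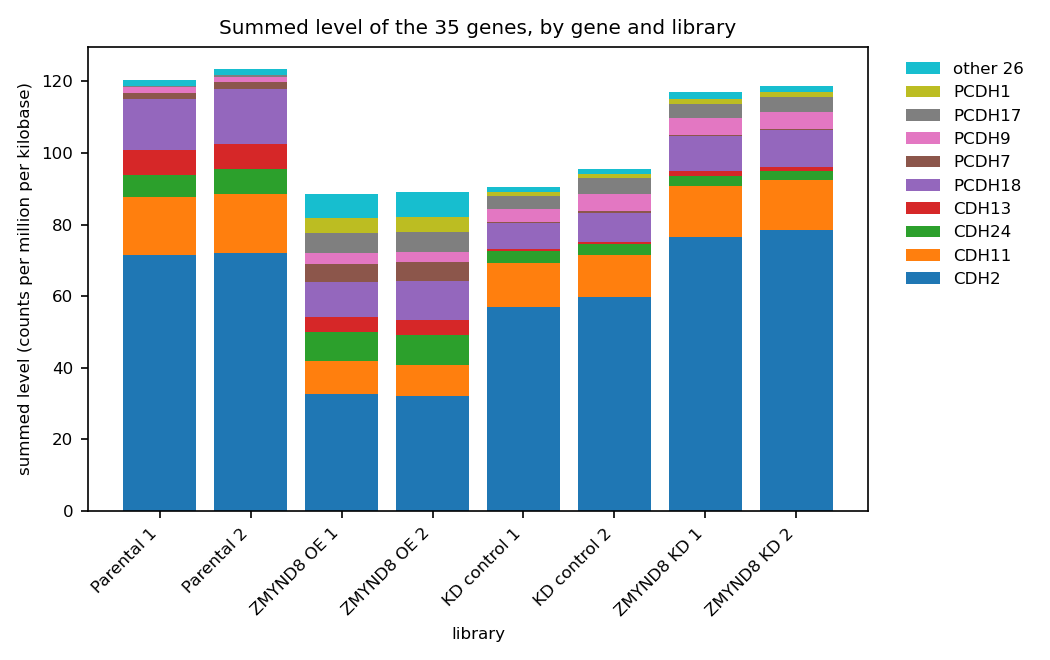
Summed level of the 35 genes in each library, in CPM per kilobase, stacked by gene with the other 26 pooled. The CDH2 block is shortest in the overexpression libraries, at 37.0% and 35.9% of the bar, where the delta protocadherin blocks together are tallest.

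With ZMYND8 overexpression, CDH2 fell 2.21-fold while most delta protocadherins and several type II cadherins known from the brain rose. PCDH1 rose 44.1-fold and PCDH17 14.0-fold (SE of the log2 0.129 and 0.120, n = 2 libraries a group). In this comparison, 29 of the 35 members passed the filter on low counts and 17 were called, which required an adjusted p below 0.05, a change of at least 2-fold and a mean above 20 normalized counts. Of these, 16 were higher and 1 was lower. Among all 20835 genes tested, 11.8% were called higher and 6.84% lower, and 60.8% had an adjusted p below 0.05. The median log2 fold change of the 29 was 3.61 (2.84 with the 6 members whose parental libraries were both at 0 set to their lower bound), beside 0.03 over all genes tested. Members at 0 in parental cells could pass the filter only through the overexpression libraries, so the 29 lean towards members that were higher there. Of the 9 members at 0 in both parental libraries, 6 had 10 or more counts in both overexpression libraries, against 264 of 3914 protein-coding genes. In the other direction, 1 member and 2660 protein-coding genes were at 0 in both overexpression libraries, and 0 and 2 of them had 10 or more counts in both parental libraries.

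Among the type I cadherins, which pair with catenins at adherens junctions, CDH2 fell and the others gained counts from near 0. CDH2 had 26075 and 31996 counts in parental cells, 15113 and 12071 with overexpression, 25644 and 28356 in KD control and 34352 and 35047 with knockdown. The overexpression libraries were the lowest of all 8 and the knockdown libraries the highest, with no overlap within either experiment. The log2 fold change was -1.14 (SE 0.048, edgeR adjusted p = 9.64e-09) with overexpression and 0.41 (SE 0.053, adjusted p = 0.000324) with knockdown. CDH1, the E-cadherin of epithelia, had 0 and 1 counts in parental cells, 12 and 8 with overexpression and 0 in all 4 libraries of the knockdown experiment. It did not pass the filter, and the ratio of its overexpression to its parental counts, scaled for library size, was 19.3 (95% counting interval 3.08 to 798). Even with overexpression its level per kilobase was 0.0332 ± 0.00478, against 32.3 for CDH2. CDH3, the P-cadherin of basal epithelia, had 0 counts in both parental libraries, 131 and 141 with overexpression, 7 and 8 in KD control and 4 and 4 with knockdown. It was at least 43.8-fold higher with overexpression than the floor of 3 counts per library, and was called. CDH4, the R-cadherin of retina and brain, had 0 and 0 counts in parental cells and 25 and 20 with overexpression, at least 7.1-fold higher, and had 0 to 1 in the knockdown experiment. Of the 31-base exonic sequences of CDH4, 71.3% also occur on an alternate contig of the reference, so its counts are uncertain. CDH15, the M-cadherin of muscle, had 1 and 1 counts in parental cells, 41 and 25 with overexpression and 5 to 8 in the knockdown experiment, a count ratio of 31.8 (95% counting interval 8.45 to 268). CDH4 and CDH15 stayed under the mean of 20 normalized counts that a call needed, and CDH15 was called once either parental library was left out (log2 4.69 and 4.94).

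As a measure of switching, the log2 ratio of CDH2 to CDH1 per kilobase, with a prior of 2 counts, was 13.43 and 12.87 in parental cells and 9.57 and 9.78 with overexpression, a difference of -3.47. With knockdown it was 13.53 and 13.56, against 13.10 and 13.17 in KD control, a difference of 0.41. All 8 libraries kept CDH2 above CDH1 by a log2 ratio of at least 9.57, and CDH1 was at 0 throughout the knockdown experiment, where the ratio moves only with CDH2 and library size. The log2 ratio of CDH11 to CDH2 differed by 0.29 with overexpression and -0.18 with knockdown, that of CDH6 to CDH2 by 2.49 and 0.30, that of CDH13 to CDH2 by 0.40 and 0.40, and that of CDH2 to CDH4 by -4.81 and 0.13. CDH1 and CDH4 were at 0 or 1 count in their controls, and these ratios depend on the prior. With a prior of 0.5 counts, CDH2 to CDH1 differed by -4.79 with overexpression, and CDH2 to CDH4 by -6.72 with overexpression and by -0.37 with knockdown, where the direction turned. That last value was -0.18 to 0.43 with 1 library left out at the prior of 2 counts. Apart from CDH2 to CDH4 with knockdown, the libraries of the groups did not overlap in any of these 10 differences. With 2 libraries against 2, the exact permutation test (two-sided) cannot go below p = 0.333, so these ratios are descriptions.

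Type II cadherins guide the sorting of neuronal and mesenchymal cells. Of the 13, 11 were tested with overexpression and 6 were called, all higher, where 11.8% of all genes tested were called higher. CDH7, CDH9 and CDH12, at 0 in both parental libraries, could pass the filter only through the overexpression libraries. CDH6, a cadherin of kidney and neural crest, had 346 and 376 counts in parental cells, 1056 and 860 with overexpression, 429 and 489 in KD control and 738 and 717 with knockdown. It was higher in both perturbed groups without overlap, by a log2 of 1.36 (SE 0.091, edgeR adjusted p = 3.70e-07) with overexpression, a call, and of 0.71 (SE 0.094, adjusted p = 0.000377) with knockdown, under the 2-fold threshold. CDH10, a cadherin of the brain, had 2 and 7 counts in parental cells, 90 and 83 with overexpression, 24 and 18 in KD control and 15 and 13 with knockdown. Its log2 fold change was 4.19 (SE 0.381, edgeR adjusted p = 4.12e-06) with overexpression, and -0.53 (adjusted p = 0.365) with knockdown. The size of the first rests on the few parental counts: it was 3.68 without the first parental library and 5.17 without the second, and was called in both fits.

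The other 4 called type II cadherins were close to 0 in parental cells. CDH8, a cadherin of cortical and striatal neurons, had 2 and 0 counts in parental cells, 48 and 53 with overexpression, 19 and 17 in KD control and 17 and 6 with knockdown, and its count ratio of overexpression to parental was 48.6 (95% counting interval 13.1 to 407). CDH22, a brain cadherin, had 1 and 1, 48 and 44, 6 and 0, and 1 and 2 counts in the same order, a ratio of 44.3 (11.9 to 371). Between KD control and parental cells the libraries of CDH22 overlapped (edgeR adjusted p = 0.369). CDH7, a cadherin of neural crest and brain, had 0 and 0 counts in parental cells, 61 and 59 with overexpression, and 1 count in all of the knockdown experiment, so it was at least 19.2-fold higher with overexpression. CDH12, a brain cadherin, had 85 and 81 counts with overexpression and 0 in each of the other 6 libraries, at least 26.5-fold higher. CDH9, also a brain cadherin, had 14 and 17 counts with overexpression and 0 in the other 6, at least 5.0-fold higher, under the mean needed for a call. Since their means lay near 20 normalized counts, CDH8 (log2 5.24 and 5.66) and CDH22 (5.25 and 5.40) lost their calls without either overexpression library, and CDH7 without the second.

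CDH9, CDH10 and CDH12, with CDH18 and CDH6, lie on the short arm of chromosome 5. Of these 5, 3 were called higher with overexpression, where 11.8% of all genes tested were called higher. CDH9 and CDH12, at 0 in both parental libraries, could pass the filter only through the overexpression libraries. CDH18, a cadherin of neurons, had 151 and 158 counts in parental cells, 199 and 131 with overexpression, 57 and 56 in KD control and 68 and 77 with knockdown. Its groups overlapped in the overexpression experiment, where the log2 fold change was 0.03 (SE 0.170, edgeR adjusted p = 0.887).

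The abundant type II cadherins moved less. CDH11, the osteoblast cadherin of mesenchymal cells, had 9088 and 11227 counts in parental cells, 6438 and 5153 with overexpression, 8619 and 8656 in KD control and 9887 and 9683 with knockdown. It was lower with overexpression and higher with knockdown, each without overlap, by a log2 of -0.86 (SE 0.048, edgeR adjusted p = 8.66e-08) and 0.23 (SE 0.050, adjusted p = 0.00718). Neither reached the 2-fold threshold. CDH24, a catenin-binding member of the type, had 993 and 1341 counts in parental cells, 1665 and 1373 with overexpression, 656 and 619 in KD control and 575 and 501 with knockdown. Its log2 fold change was 0.34 (SE 0.069, edgeR adjusted p = 0.00158) with overexpression and -0.20 (adjusted p = 0.211) with knockdown. CDH20 had 28 and 36 counts in parental cells, 23 and 19 with overexpression, 15 and 42 in KD control and 11 and 4 with knockdown. Its KD control libraries spread widely, and the log2 fold change of -1.85 with knockdown (SE 0.591, edgeR adjusted p = 0.0440) came with a mean of 17.7 normalized counts, under that needed for a call, and ranged from -2.74 to -0.98 with 1 library left out.

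The other cadherins went in both directions. CDH13 (T-cadherin), which is held to the membrane by a lipid anchor and has no tail for catenins, had 3292 and 4044 counts in parental cells, 2513 and 2028 with overexpression, 421 and 399 in KD control and 741 and 659 with knockdown. It was lower with overexpression by a log2 of -0.74 (SE 0.050, edgeR adjusted p = 3.84e-07) and higher with knockdown by 0.82 (SE 0.105, adjusted p = 0.000310), both without overlap and both under the 2-fold threshold. Its exons overlap an antisense gene, CDH13-AS2, over 21.4% of their bases, and the strand setting of the counting is not given in the sources used here. CDH23, a long cadherin that forms the tip links of inner ear hair cells with PCDH15, had 5 and 7 counts in parental cells, 231 and 219 with overexpression, 33 and 55 in KD control and 131 and 136 with knockdown. It was higher in both perturbed groups without overlap, by a log2 of 5.16 (SE 0.264, edgeR adjusted p = 4.42e-08) and 1.65 (SE 0.231, adjusted p = 0.000534). C10orf105 lies opposite 18.8% of its exon bases, and reads of the 2 genes cannot be told apart without strand. PCDH15, its partner, had 66 and 72 counts in parental cells, 107 and 104 with overexpression, 52 and 62 in KD control and 38 and 45 with knockdown, a log2 of 0.57 (edgeR adjusted p = 0.0302) and -0.41 (adjusted p = 0.250). CDH17, the cadherin of liver and intestine, had 25 and 34 counts in parental cells, 3 and 2 with overexpression and 0 to 6 in the knockdown experiment, a log2 of -3.54 (SE 0.483, edgeR adjusted p = 9.80e-05) at a mean of 16.1 normalized counts, and it was called without the second overexpression library (-3.41). CDH26 had 6 to 17 counts in every library and did not pass either test, with an edgeR adjusted p of 0.184 and 0.529.

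**Figure D3:**
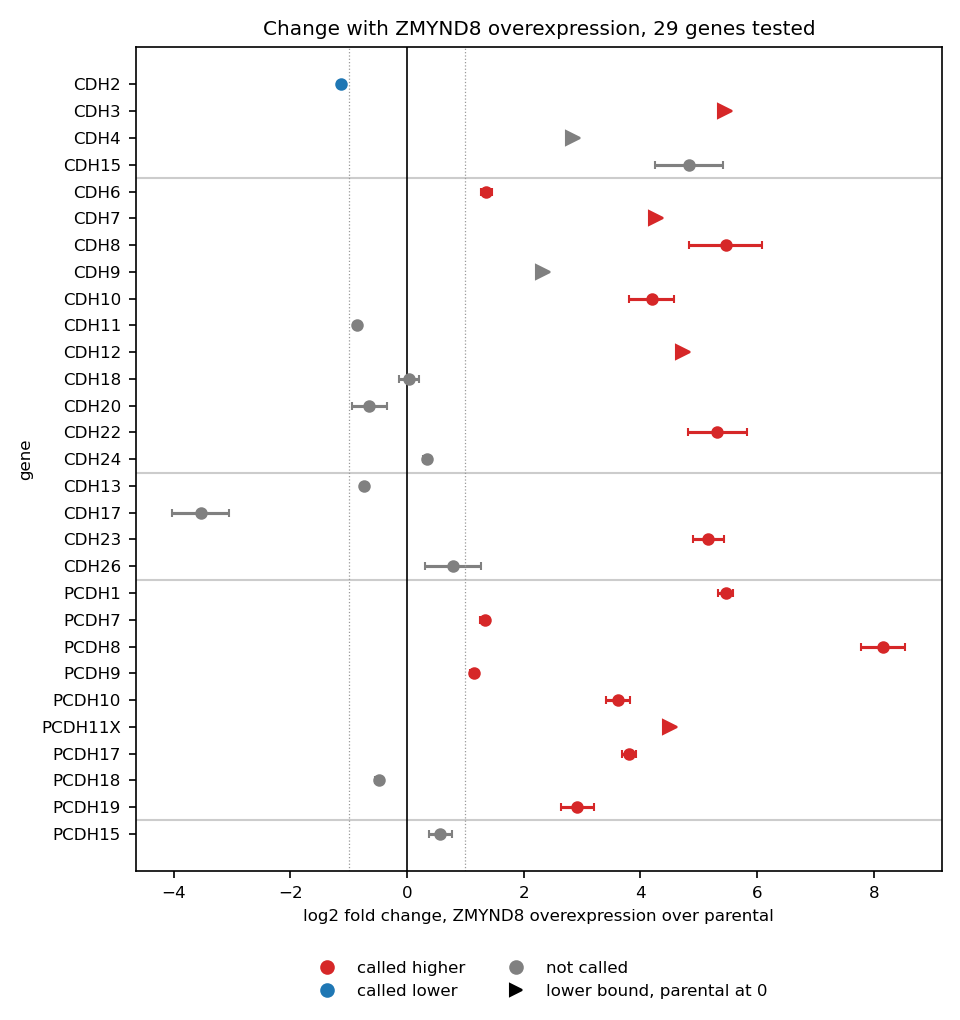
Log2 fold change of the 29 tested members with ZMYND8 overexpression over parental cells, by subfamily; points are edgeR estimates with their SE, triangles are lower bounds for members at 0 in both parental libraries, and dotted lines mark 2-fold. Of the 17 coloured members, 16 are to the right (called higher) and CDH2 is to the left at -1.14.

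Of the 9 delta protocadherins, all passed the filter with overexpression, 8 were called higher and PCDH18 was lower. Among all genes tested, 11.8% were called higher. PCDH11X, at 0 in both parental libraries, could pass only through the overexpression libraries. PCDH1, a delta-1 member found in brain and airway, had 22 and 32 counts in parental cells, 1335 and 1128 with overexpression, 394 and 361 in KD control and 435 and 409 with knockdown. Its log2 fold change was 5.46 (SE 0.129, edgeR adjusted p = 1.80e-10), or 44.1-fold, with overexpression and 0.21 (SE 0.115, adjusted p = 0.224) with knockdown. PCDH17, a delta-2 member of corticostriatal synapses, had 114 and 200 counts in parental cells, 2483 and 2025 with overexpression, 1540 and 2004 in KD control and 1745 and 1884 with knockdown. It was 14.0-fold higher with overexpression, at a log2 of 3.80 (SE 0.120, edgeR adjusted p = 1.34e-09), and its libraries overlapped in the knockdown experiment, where the log2 was 0.09 (SE 0.094, adjusted p = 0.558). For both genes the parental libraries were the lowest of all 8, and the KD control libraries stood above them.

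PCDH8, a delta-2 protocadherin of activity-dependent synapses, had 2 and 0 counts in parental cells, 351 and 310 with overexpression, 7 and 6 in KD control and 10 and 1 with knockdown. The count ratio of overexpression to parental was 318 (95% counting interval 87.7 to 2633). PCDH10, known from axon pathways of the forebrain and as a gene silenced in tumours, had 24 and 20 counts in parental cells, 313 and 246 with overexpression, 6 and 8 in KD control and 17 and 2 with knockdown, a log2 of 3.61 (SE 0.208, edgeR adjusted p = 1.15e-07) with overexpression. PCDH19, an X-linked delta-2 gene whose loss causes an epilepsy, had 10 and 20, 142 and 95, 7 and 12, and 6 and 2 counts in the same order, a log2 of 2.92 (SE 0.286, edgeR adjusted p = 7.38e-06). These 3 genes stood apart in the overexpression libraries alone, since no other library exceeded 24 counts. PCDH11X had 91 and 55 counts with overexpression and 0 in each of the other 6 libraries, at least 22.8-fold higher. It shares 73.0% of its 31-base exonic sequences with other genes, foremost PCDH11Y, so its counts are uncertain, and it was not called without the first overexpression library.

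PCDH7 and PCDH9, delta-1 members of brain, were already expressed in parental cells. PCDH7 had 948 and 1360 counts in parental cells, 3200 and 2758 with overexpression, 280 and 295 in KD control and 260 and 239 with knockdown. It was 2.52-fold higher with overexpression (log2 1.33, SE 0.076, edgeR adjusted p = 1.08e-07), without overlap, and a gene on the opposite strand covers 12.7% of its exon bases. PCDH9 had 1928 and 2076 counts in parental cells, 5252 and 3946 with overexpression, 5738 and 8423 in KD control and 7471 and 7283 with knockdown. Its log2 fold change of 1.14 (SE 0.068, edgeR adjusted p = 1.46e-07) fell to 0.99, under the threshold, when the trend with gene length was removed. PCDH18, a delta-2 member, had 4023 and 5265 counts in parental cells, 3523 and 3255 with overexpression, 2507 and 3024 in KD control and 3444 and 3599 with knockdown. It was lower with overexpression (log2 -0.49, SE 0.066, edgeR adjusted p = 8.96e-05) and higher with knockdown (0.40, SE 0.069, adjusted p = 0.00192), without overlap in either experiment.

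PCDH12, a protocadherin of endothelial cells, had 7 and 7 counts in parental cells, 16 and 5 with overexpression, 31 and 13 in KD control and 36 and 41 with knockdown. It was tested in the knockdown experiment only, at a log2 of 0.85 (edgeR adjusted p = 0.139), and was called without the first KD control library (1.63). Never above 10 counts in any library were CDH5, the cadherin of endothelial junctions, at 0 to 2, CDH16, a kidney cadherin, at 0 to 2, CDH19, a Schwann cell cadherin, at 0 to 2, and PCDH20, at 0 to 5. PCDH20 overlaps another gene on its own strand over 95.8% of its exon bases, so its counts are uncertain. The 6 endothelial markers summed to 4.30 to 5.23 CPM in parental cells, 6.57 to 7.44 with overexpression, 2.78 to 2.85 in KD control and 2.50 to 3.63 with knockdown. The 6 Schwann markers summed to 2.28 to 2.40, 8.53 to 9.14, 3.33 to 3.50 and 3.51 to 3.80 CPM in the same order, and SOX10, a factor of neural crest and Schwann cells, had at most 1 count in any library. Of the same list, S100B had 12 and 11 counts in parental cells and 106 and 104 with overexpression (log2 3.14), and ERBB3 had 27 and 56 against 263 and 245 (2.58). Both were called higher. In KD control, S100B had 112 and 97 counts and ERBB3 had 18 and 20. The endothelial markers went both ways with overexpression, at a median log2 of -0.08. KDR (log2 3.84) and CLDN5 (5.35) were called higher, and PECAM1 (-3.31) and VWF (-3.50) were called lower. Over all genes tested, 11.8% were called higher and 6.84% lower. The part of these cell type markers in the results was not tested.

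Knockdown moved the members less. CDH23 rose by a log2 of 1.65, and CDH2, CDH6, CDH11, CDH13 and PCDH18 rose by 0.23 to 0.82. In this comparison, 18 members passed the filter and CDH23 alone was called, as higher, where 1.36% of 19789 genes were called higher and 0.596% lower. At an adjusted p below 0.05 alone, which 24.3% of all genes reached, 7 members passed: CDH2, CDH6, CDH11, CDH13, CDH23 and PCDH18 were higher and CDH20 was lower. The 11 that did not pass ranged from 0.85 for PCDH12 to -0.59 for CDH8 on the log2 scale. The median log2 fold change of the 18 was 0.16, beside -0.01 over all genes tested.

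Each experiment had its own controls, and 17 members were tested in both. Of the 6 with an adjusted p below 0.05 in both, CDH2, CDH11, CDH13 and PCDH18 were lower with overexpression and higher with knockdown, and CDH6 and CDH23 were higher in both. The test of the difference between the effects, over all 8 libraries, called 14 of 31 members, 11 positive and 3 negative, where 11.1% of 22619 genes were called positive and 7.66% negative. The 3 negative calls were CDH2 at -1.56 (SE 0.071, edgeR adjusted p = 1.42e-10), CDH13 at -1.56 (SE 0.099, adjusted p = 5.58e-09) and CDH11 at -1.09 (SE 0.068, adjusted p = 4.88e-09). PCDH18, at -0.89 (SE 0.102, edgeR adjusted p = 3.51e-06), missed the 2-fold threshold. The positive calls were PCDH1, PCDH7, PCDH8, PCDH9, PCDH10, PCDH17, PCDH19, CDH3, CDH8, CDH10 and CDH23. Among them, PCDH8, PCDH10, PCDH19 and CDH3 did not pass the filter in the knockdown comparison, so their differences rest mainly on the overexpression effect. Members with few counts elsewhere could enter the 31 through the overexpression libraries, so the 31 lean towards members that were higher there. PCDH9, at 1.02, lay at the 2-fold threshold and lost its call with RLE scaling (0.96), with DESeq2 (0.96) and with no filter on low counts (0.94). It was also lost without the second parental library (0.94), the first overexpression library (0.96) or the second KD control library (0.76). CDH8 lost its call with DESeq2 and without either overexpression library. CDH20, PCDH15 and PCDH18 were each called in at least 1 fit without a library. The 31 include CDH1, CDH4, CDH7, CDH9, CDH12 and PCDH11X, whose other 3 groups held at most 1 count each. For these 6, the edgeR estimate came with no usable SE (adjusted p = 0.9997 for each), and DESeq2 called CDH12.

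**Figure D4:**
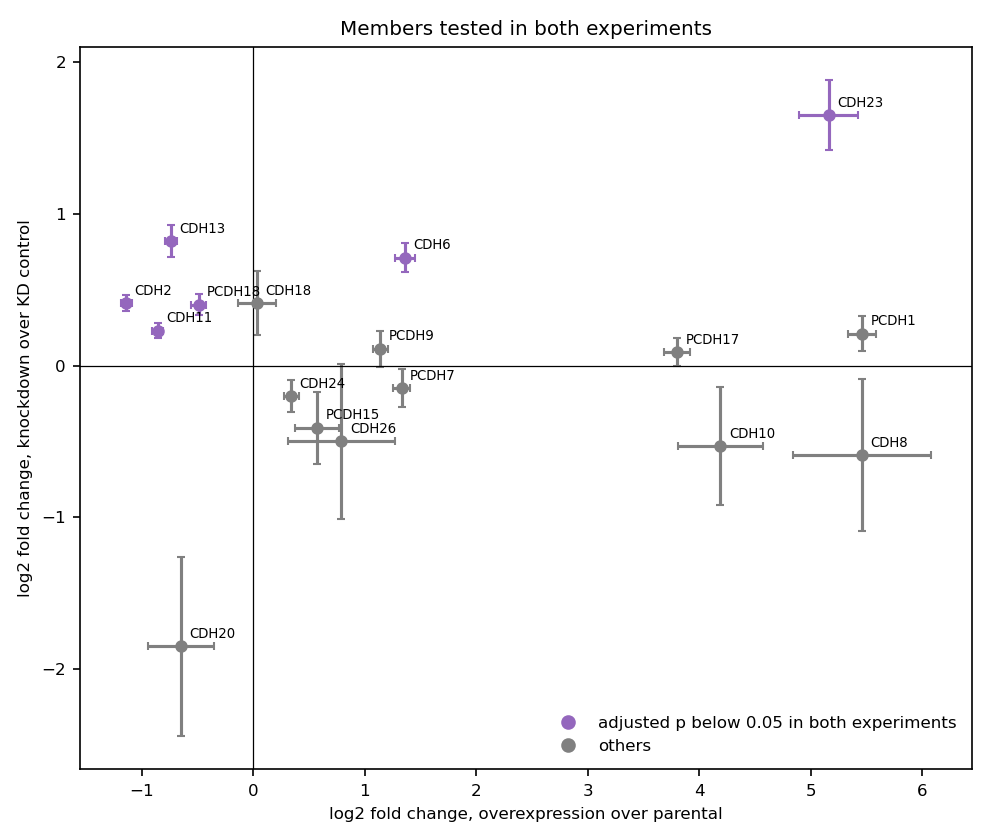
Log2 fold change with overexpression (horizontal) against that with knockdown (vertical) for the 17 members tested in both experiments, with SE bars. CDH2, CDH11, CDH13 and PCDH18 lie in the upper left quadrant, with overexpression values of -0.49 to -1.14 and knockdown values of 0.23 to 0.82, and CDH6 and CDH23 in the upper right.

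The control groups themselves differed. Between KD control and parental cells, 8 of 31 members were called, 4 higher and 4 lower in KD control, where 9.65% and 9.84% of all genes were called. PCDH1 (log2 3.61), PCDH17 (3.30), CDH23 (2.65) and PCDH9 (1.61) were higher in KD control, and CDH13 (-3.36), PCDH7 (-2.19), CDH18 (-1.65) and CDH24 (-1.06) were lower. CDH24 lost its call without the second library of either group (-0.98 and -0.99) and CDH23 without the second KD control library (2.28), while CDH17, CDH20 and PCDH18 gained one in fits without a KD control library. CDH2 and CDH11 differed less, by a log2 of -0.30 and -0.43. Experiment, Dox and vector cannot be told apart in this comparison, which shares its parental libraries with the overexpression comparison and its KD control libraries with the knockdown comparison. For PCDH1, PCDH17, CDH23 and PCDH9, the overexpression effect beside parental cells was 5.46, 3.80, 5.16 and 1.14 in the same units.

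The intracellular partners of cadherins changed unevenly with overexpression. Of 12 catenins and adaptors, 3 were called higher and 1 lower, with a median log2 of 0.13, where 11.8% of all genes tested were called higher and 6.84% lower. Beta-catenin (CTNNB1) was at -0.08 (edgeR adjusted p = 0.183), alpha-E-catenin (CTNNA1) at -0.48 and p120 catenin (CTNND1) at -0.30. Tissue-restricted relatives were the ones called higher: alpha-N-catenin (CTNNA2) had 80 and 82 counts in parental cells and 1776 and 1578 with overexpression (log2 4.33), delta-catenin of neurons (CTNND2) 2 and 3 against 287 and 204 (6.50), and CTNNA3 0 and 2 against 92 and 41. In KD control, CTNNA2 had 1004 and 1147 counts, a log2 of 3.53 over parental cells and a call. CTNND2 had 2 and 3 counts in KD control, and CTNNA3 had 0 and 0. Vinculin (VCL), which reinforces the link to actin, fell from 23465 and 31030 counts in parental cells to 10522 and 8184 with overexpression (log2 -1.59). Between KD control and parental cells it was at -0.62. With knockdown, none of the 10 tested was called by edgeR. An adjusted p below 0.05 was reached by 3 of them, beside 24.3% of all genes, with CTNNA1 among the 3 at 0.16 on the log2 scale.

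Of the 7 desmosomal cadherins, which bind plakoglobin in place of beta-catenin, all were at 0 in both parental libraries, and all had a count in at least 1 overexpression library, at a summed 2.98 to 3.48 CPM. Of the 7, 2 passed the filter with overexpression: DSC3, with 74 and 53 counts, and DSG2, with 76 and 57, and both were called higher. With parental libraries at 0, they could pass only through the overexpression libraries, so no gene of this list could have been called lower. Of 17 Fat, Dachsous, Flamingo and calsyntenin genes, distant relatives of the cadherins, 5 were called higher and 2 lower with overexpression, with a median log2 of 0.70 over the 14 tested. The higher ones were DCHS1 (log2 2.40), DCHS2 (0 and 0 counts against 73 and 66), CLSTN2 (4.65), CDHR1 (3.37) and CDHR2 (2.13), and the lower ones were FAT1 (-1.16) and FAT4 (-1.10). With knockdown, FAT3 was called higher (1.52) and CDHR1 lower (-1.21). Between KD control and parental cells, DCHS1 (1.35), CLSTN2 (4.22) and CDHR1 (1.91) were called higher, and CELSR1 (-2.31) and FAT4 (-1.66) lower. In that comparison, 9.65% of all genes were called higher and 9.84% lower. FAT1 was at 0.36 and CDHR2 at -1.17 there, both uncalled, and DCHS2 had 0 and 0 counts in KD control. Over all genes tested, 11.8% were called higher and 6.84% lower with overexpression, and 1.36% and 0.596% with knockdown.

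Of the 7 SNAI, TWIST and ZEB genes, whose products repress CDH1 at E-boxes in epithelial to mesenchymal transition, TWIST1 was called higher with overexpression (log2 1.31, SE 0.048, edgeR adjusted p = 3.73e-09), from 3592 and 4266 counts to 10908 and 9142. SNAI1 was at 0.03, SNAI2 at -0.49, SNAI3 at 0.43, TWIST2 at -0.47, ZEB1 at 0.12 and ZEB2 at 0.58, and no gene of the list was called with knockdown by edgeR, where SNAI2, at -0.41, had an adjusted p of 0.0119. TWIST1 is also 1 of the 13 mesenchymal markers. Of 12 genes that cleave cadherins, ADAM9 (-1.09) and MMP14 (-1.39) were called lower with overexpression, and ADAM10, the main sheddase of N- and E-cadherin, was at -0.35. Between KD control and parental cells, MMP14 was at -2.89, a call, ADAM9 at -0.74 and ADAM10 at 0.28. APH1B, a subunit of the gamma-secretase that cuts the remaining stub, was called higher with knockdown (1.01). The medians of these 12 were -0.32 with overexpression and 0.01 with knockdown. The shares of all genes called higher and lower were 11.8% and 6.84% with overexpression, and 1.36% and 0.596% with knockdown.

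**Figure D5:**
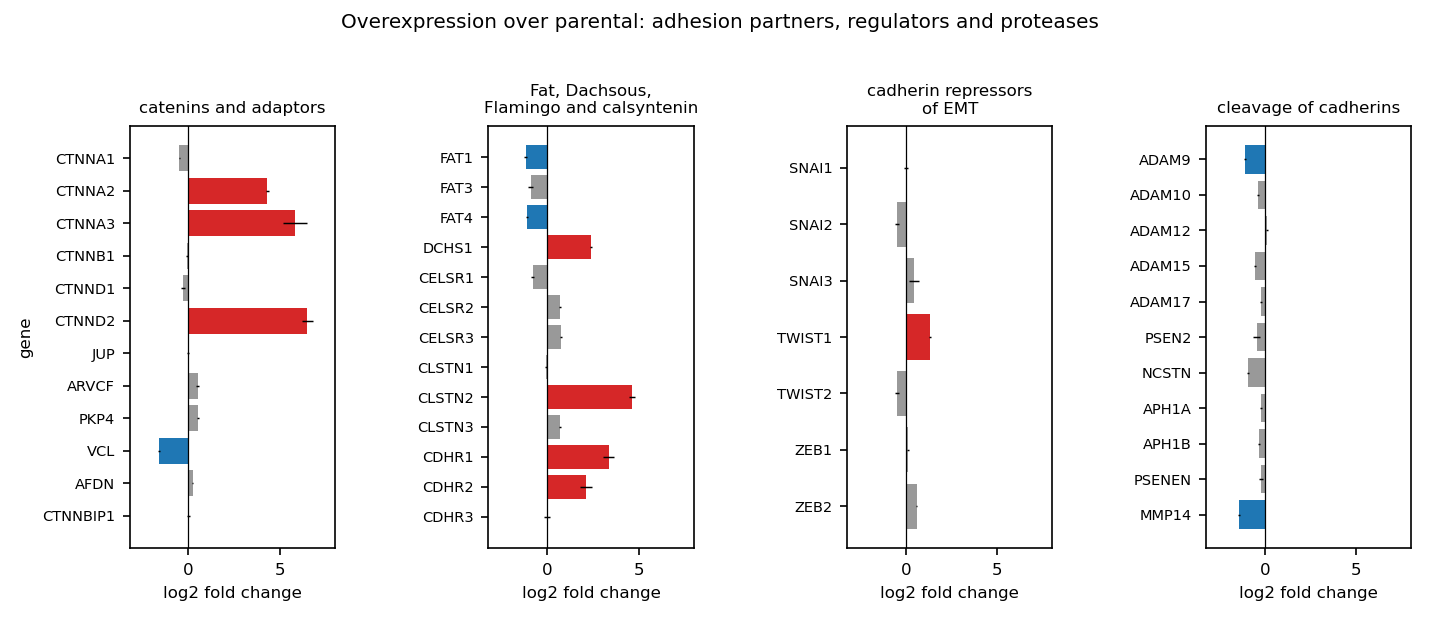
Log2 fold change with ZMYND8 overexpression over parental cells, with SE, for catenins and adaptors, distant cadherin relatives, repressors of CDH1 and cadherin proteases; genes at 0 in parental cells and 1 protease gene are left out, and red and blue bars are genes called higher and lower. The red bars of CTNNA2 (4.33), CTNNA3 and CTNND2 (6.50) stand beside CTNNB1 at -0.08, and TWIST1 (1.31) is the one coloured repressor.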

How the data were processed

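RNA of 8 SK-N-SH libraries in 4 groups was analysed, with groups taken from the sample labels. The authors deposited raw counts per gene. According to the study's methods, paired-end reads were cleaned with Trim_Galore, aligned to GRCh38 by Hisat2 and counted by featureCounts on a GENCODE annotation; the submitters' notes also name DESeq2. Strand setting and multimapping are not given in the sources used here. The table's other measure is the summed exon length, in bases, that the authors deposited beside the counts. Of its lines, 3 were broken and left out. For 60462 of the 60659 identifiers, GENCODE release 44 gave the symbol.

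In R 4.3.3, edgeR 4.0.16 (with limma 3.58.1) filtered the counts with filterByExpr, scaled them with TMM and ran its two-sided quasi-likelihood test, with Benjamini-Hochberg adjustment over all genes tested. Members were called where the adjusted p was under 0.05, the log2 change at least 1 in size and the mean over 20 normalized counts. Overexpression and knockdown were each fitted on 4 libraries, the other comparisons on 8. CPM are per 1000000 counts on TMM sizes, and levels per length are CPM per kilobase of the deposited length. Folds against a group at 0 use a floor of 3 counts per library; where a group held 1 to 3 counts in all, the 95% counting interval of the count ratio is given, which covers counting error only. Replicates differed by more than counting noise (chi-square per degree of freedom 6.05 to 8.86). The fits were tested on simulated data in which only genes with ample counts were changed, so that test does not cover members near 0. Alternatives were RLE and upper quartile scaling, DESeq2 1.42.0, other filters and thresholds, a replicate block, a gene length correction, 1 fit of all 8 libraries, each library left out, and another prior count and RLE sizes in the ratios.

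The members and lists were chosen with earlier results of these data known. Counts per library are given for CDH1, CDH2, each called member and each with a group mean of 10 CPM; members never above 10 counts are named with their range. From the other lists, called genes, the main catenins, ADAM10 and the SNAI, TWIST and ZEB genes may be named; 1 gene of the protease list is not reported here. The counts of remaining members, the desmosomal counts, the named epithelial and Schwann markers, the olfactory receptor check and the counts of genes starting from 0 were added after values were seen.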

Additional observations from a re-analysis of the deposited data

Results flagged for a closer look

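The difference between the effects of overexpression and knockdown, tested over all 8 libraries, was called for 4 members that also had an adjusted p below 0.05 with knockdown. CDH2 differed by -1.56 on the log2 scale (overexpression -1.14, knockdown 0.41) and CDH13 by -1.56 (-0.74 and 0.82). CDH11 differed by -1.09 (-0.86 and 0.23), and both libraries of each perturbed group lay on opposite sides of their own controls for these 3 genes. CDH23 differed by 3.51 (5.16 and 1.65), with both effects in the same direction. PCDH18 (difference -0.89, edgeR adjusted p = 3.51e-06) and CDH6 (0.64, adjusted p = 0.000902) also had an adjusted p below 0.05 with knockdown. Their differences missed the 2-fold threshold. The control groups of the experiments also differed for CDH13 (log2 -3.36) and CDH23 (2.65), and the part of that difference was not tested.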

How the results depend on the processing

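RLE and upper quartile scaling, DESeq2, no filter on low counts and the fit of all 8 libraries each called the same 17 members with overexpression and CDH23 alone with knockdown. For the difference of effects, against 14 calls, RLE scaling and no filter on low counts gave 13 (without PCDH9), DESeq2 13 (without PCDH9 and CDH8, with CDH12 added) and upper quartile scaling 15 (with PCDH15 added). A minimum mean of 100 normalized counts left 9 members with overexpression, 0 with knockdown and 8 for the difference of effects, since many members have few counts. Without a threshold on fold change, 6 were called with knockdown. The gene length correction left 16 with overexpression, without PCDH9. Leaving out 1 library gave 14 to 18 calls with overexpression, 1 to 2 with knockdown, 13 to 16 for the difference and 7 to 9 between the controls.

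The replicate numbers did not pair the libraries: the deviations of same-numbered libraries correlated at 0.0097 (overexpression) and -0.0111 (knockdown) across genes, and the replicate block gave 17, 1, 14 and 8 calls, the same members as without it.

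With a prior of 0.5 counts, the difference in the log2 ratio of CDH2 to CDH1 with overexpression was -4.79, that of CDH2 to CDH4 was -6.72, and that of CDH2 to CDH4 with knockdown turned to -0.37; RLE sizes gave -4.82 for CDH2 to CDH4 with overexpression. With 1 library left out, CDH2 to CDH4 with knockdown ranged from -0.18 to 0.43. These ratios rest on 0 to 25 counts of CDH1 or CDH4.

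With 1 library left out, log2 values that had not been called ranged across 0 for CDH18 with overexpression (-0.14 to 0.18), for PCDH9 (-0.11 to 0.37) and PCDH17 (-0.07 to 0.25) with knockdown, for PCDH12 in the difference of effects (-1.23 to 0.18), and for CDH20 (-1.25 to 0.16) and CDH22 (-3.26 to 2.29) between the controls; the cause was not tested. Where 2 libraries become 1, the lone library is assumed to vary like the others. Members under about 20 counts cannot be compared beyond counting error at this depth.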
